A study of Mus musculus with 8 samples.

Results

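Mbp, Nefm, Grpr, Gfra2 and Cntn1 are grouped here as nerve and Schwann cell genes by their known roles. Which cells of the skin their RNA came from was not measured, and it need not be nerve. They are described here in the skin of near naked hairless mutant mice set against wild type mice. Each of the 5 genes was found as 1 spot by its RefSeq accession, out of 6585 named genes with a spot on the array. The 5 were chosen by their log ratios on these same arrays, which had been seen in an earlier reading, so the ratios of mutant over wild type given for them are descriptions and are not tested. In each dye orientation 4 of the 5 were measured by 3 or more of its 4 arrays, and these entered the fit, which held 3779 named genes in all. Gfra2 had values on 2 of the 4 arrays with the mutant RNA in Cy3 and was fitted with a looser filter.

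The near naked hairless mouse carries a mutation of the hairless locus that leaves a sparse coat. Skin RNA of near naked hairless pups aged 7 days was hybridised together with skin RNA of wild type pups of the same age on 8 spotted 2-colour arrays. The labels give no number of mutant alleles per animal, and the design text names 5 biological replicates that came out of 1 litter. With 8 arrays, some arrays must share RNA of an animal, so the spread between arrays is partly technical and p-values over arrays are too small. The mutant RNA carried the dye Cy5 on arrays 2, 4, 6 and 7 and the dye Cy3 on arrays 1, 3, 5 and 8. Each value is the authors' log ratio, read here as log2 of mutant over wild type, and a ratio holds no level of either RNA. The markers of skin therefore could not be checked as levels.

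Both the base of the logarithm and the direction of the ratio are assumptions of this description. The channel called sample was read as mutant and the channel called control as wild type, and a turned direction would turn every sign below. Over named genes, 12 of 12 pairs of arrays of the same orientation correlated above 0 (median r = 0.50), and the 16 pairs of opposite orientation split into 6 above and 10 below 0 (median r = -0.03). Over the 232 replicate spots of Gapdh, the 16 pairs of opposite orientation were all below 0 (median r = -0.45) and the 12 pairs of the same orientation all above 0 (median r = 0.55). On that basis the ratios were taken to run the same way on every array, and whatever part changes with the orientation was taken as a dye part. Arrays 1, 2 and 3 had values for 59.0%, 50.7% and 41.3% of all spots, and the other 5 for between 70.1% and 88.3%.

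In the skin, axons of sensory and autonomic neurons run through the dermis to hair follicles, vessels and the epidermis, while the cell bodies of those neurons lie in ganglia outside it. Schwann cells, which stay in the skin with the axons, wrap larger fibres in myelin and hold smaller ones in bundles. Nerve fibres around hair follicles sense the movement of hairs. Mbp, the myelin basic protein gene, encodes a protein that compacts the myelin membrane, and the same gene also gives rise to golli transcripts outside myelinating cells. Nefm encodes the medium neurofilament subunit of the axon. Cntn1 encodes contactin 1, an adhesion molecule of axons and of their contact with glia. Gfra2 encodes the co-receptor that binds neurturin, a survival factor of the GDNF family, and signals together with the receptor tyrosine kinase Ret. Grpr encodes the receptor of gastrin-releasing peptide, known for its part in the transmission of itch in the spinal cord.

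The 5 genes did not move as 1 group. Grpr had the lowest ratios, Mbp and Gfra2 were below 0 on most arrays, and Nefm and Cntn1 lay around 0 with wide spread. The fitted log2 ratios were -2.14 ± 0.23 for Grpr, -0.90 ± 0.20 for Mbp, -0.62 ± 0.25 for Gfra2, 0.04 ± 0.27 for Nefm and 0.46 ± 0.37 for Cntn1 (SE). In whole skin, fewer cells of a type and less RNA per cell cannot be told apart.

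**Figure D1:**
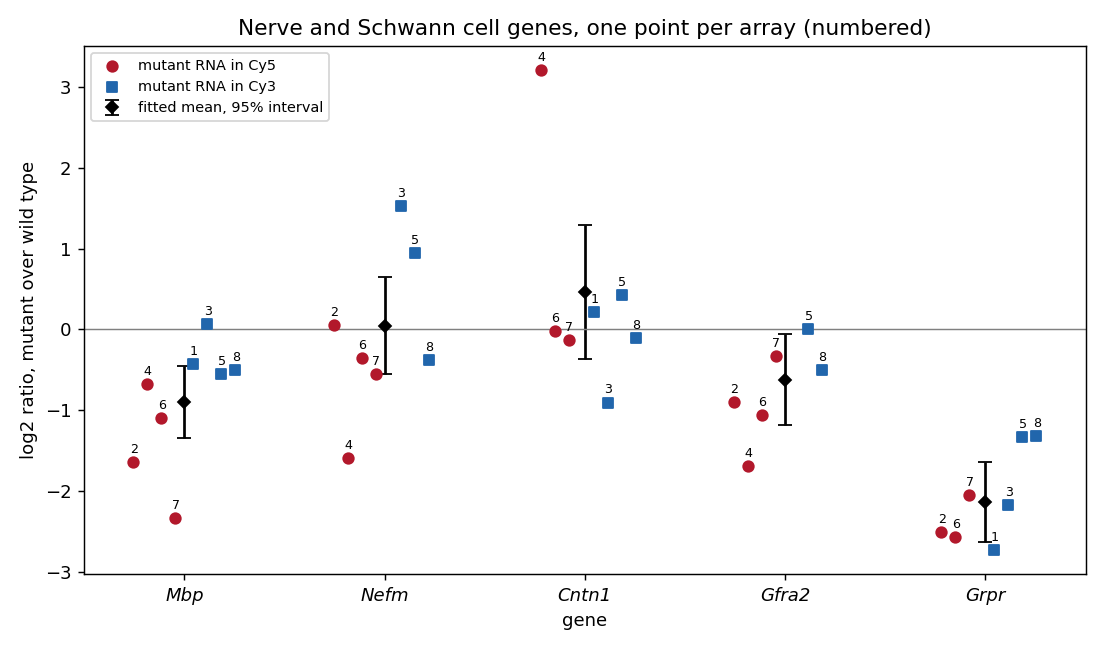
Log2 ratio of mutant over wild type (vertical axis) for each gene, with 1 numbered point per array, red circles for mutant RNA in Cy5 and blue squares for mutant RNA in Cy3. Black diamonds are fitted means with 95% intervals, which are descriptions and no test. All 7 values of Grpr lie below 0, and Cntn1 stands at 3.21 on array 4 and no higher than 0.43 elsewhere.

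The promoters of Grpr and Cntn1 are shown because these are the 2 members of 5 that the RefSeq table used here holds. Each window runs from 250 bases before to 50 after an annotated start in the build GRCm38.p6. Capitals mark matches, on either strand, to TATAAA of the TATA box, to the CCAAT box, to CCGCCC of the GC box or to TGACGT of the cyclic AMP response element. These motifs were picked after the sequences had been read. For Cntn1, which has several annotated starts, the most upstream window is given. Grpr lies at chrX:163549687-163549986 on the minus strand and Cntn1 at chr15:92050915-92051214 on the plus strand.
Grpr: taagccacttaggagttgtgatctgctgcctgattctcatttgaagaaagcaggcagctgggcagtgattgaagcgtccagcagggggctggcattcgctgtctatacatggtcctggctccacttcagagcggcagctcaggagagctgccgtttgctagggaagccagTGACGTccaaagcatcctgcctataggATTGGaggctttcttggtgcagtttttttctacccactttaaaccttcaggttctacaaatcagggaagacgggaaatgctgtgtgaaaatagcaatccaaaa
Cntn1: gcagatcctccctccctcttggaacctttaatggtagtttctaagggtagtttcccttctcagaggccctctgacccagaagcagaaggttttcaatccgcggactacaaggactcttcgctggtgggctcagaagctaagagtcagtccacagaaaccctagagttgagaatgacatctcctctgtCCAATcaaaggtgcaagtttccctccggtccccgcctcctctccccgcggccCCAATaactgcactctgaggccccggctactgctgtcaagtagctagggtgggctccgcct
The Grpr window holds 1 match to TGACGT, which 7.51% of 32851 promoter windows of the same length hold, and 1 match to CCAAT on the minus strand. The Cntn1 window holds 2 matches to CCAAT, which 37.4% of windows hold. Neither window has a match to TATAAA (13.6% of windows) or CCGCCC (35.7%). Another Cntn1 window, at chr15:92127878-92128177 and not shown, holds 1 match to TATAAA on the minus strand and none to CCAAT. GC content was 49.7% for Grpr and 55.3% for Cntn1. A match in these letters is a description and not a binding site.

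Among the receptors, Grpr had values of -2.51, -2.57 and -2.05 on arrays 2, 6 and 7, with the mutant RNA in Cy5, and no value on array 4. With the mutant RNA in Cy3 it stood at -2.73, -2.18, -1.33 and -1.32 on arrays 1, 3, 5 and 8. All 7 values were below -1.3, and the values of the 2 orientations overlapped. The Cy5 arrays averaged -2.38 ± 0.28 (SD, n = 3) and the Cy3 arrays -1.89 ± 0.69 (SD, n = 4), named by the dye of the mutant RNA. A fitted ratio of -2.14 stands for a level 4.39-fold lower in the mutant, under the assumed base of 2. Of the 3779 fitted genes 1 had a lower fitted ratio than Grpr. Of the genes fitted, 4.13% had no array value at or above 0 and 2.86% none at or below 0, and nothing is read from Grpr being among the first.

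Gfra2 was at -0.90, -1.69, -1.06 and -0.33 on arrays 2, 4, 6 and 7 with the mutant RNA in Cy5. With the mutant RNA in Cy3 it was at 0.00 on array 5 and -0.51 on array 8, with no value on arrays 1 and 3. It was thus below 0 on 5 of 6 arrays and at about 0 on the other, and the orientations overlapped. With the looser filter the fitted ratio was -0.62, with a 95% interval from -1.19 to -0.06, a level 1.54-fold lower. The interval is no test, since Gfra2 was chosen by these ratios. Arrays that share RNA of an animal also make it too narrow.

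Mbp, the myelin gene, stood at -1.64, -0.67, -1.09 and -2.34 on arrays 2, 4, 6 and 7 with the mutant RNA in Cy5. With the mutant RNA in Cy3 it stood at -0.43, 0.06, -0.56 and -0.50 on arrays 1, 3, 5 and 8. All 4 values of the first orientation lay below all 4 of the second, a split that did not pass the test of the dye part given further on. The Cy5 arrays averaged -1.44 ± 0.72 and the Cy3 arrays -0.36 ± 0.28 (SD, n = 4 each). Over both, the fitted ratio of -0.90 had a 95% interval from -1.34 to -0.45, a level 1.86-fold lower. This interval, too, is no test and is too narrow for the same reasons as that of Gfra2. Which transcripts of Mbp the spot measures, myelin or golli, is not known here.

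The axon genes Nefm and Cntn1 had values on both sides of 0. Nefm was at 0.05, -1.59, -0.35 and -0.55 on arrays 2, 4, 6 and 7 with the mutant in Cy5, and at 1.52, 0.95 and -0.38 on arrays 3, 5 and 8 with the mutant in Cy3. Of its 7 values 3 were above 0 and 4 below, and the fitted ratio had a 95% interval from -0.56 to 0.65. Its sign also turned with the processing, to -0.04 when arrays were scaled to one spread, -0.05 without a dye term, -0.27 with arrays 4 to 8 alone and -0.65 with the table read as Cy5 over Cy3. It was also below 0 without array 2, without array 3 (-0.16) and without array 5. Cntn1 was at 3.21, -0.03 and -0.13 on arrays 4, 6 and 7 with the mutant in Cy5, and at 0.21, -0.90, 0.43 and -0.10 on arrays 1, 3, 5 and 8 with the mutant in Cy3. Without array 4 the fitted ratio of Cntn1 was -0.08 in place of 0.46, so its position above 0 rested on that array. The SD over arrays was 1.31 for Cntn1 and 1.02 for Nefm, against 0.58 for Grpr, the smallest of the 5.

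Set side by side on the same arrays, Grpr was the lowest of the members measured on 6 of the 7 arrays that had a value for it. The exception was array 7, where Mbp was at -2.34 and Grpr at -2.05. The ratio of Grpr was below that of Nefm on 6 of 6 shared arrays, by a mean of -2.20 ± 0.94 (SD), and below that of Cntn1 on 6 of 6, by -1.95 ± 0.69. It was below that of Gfra2 on 5 of 5, by -1.40 ± 0.35, and below that of Mbp on 6 of 7, by -1.17 ± 0.91. Cntn1 had the highest value of the members on 5 arrays and Nefm on 3. On arrays 6, 7 and 8 all 5 members had a value and all 5 were below 0. Cntn1 was only slightly below it, at -0.03, -0.13 and -0.10. The medians of all spots on these arrays were 0.02, 0.08 and -0.13. The members were chosen by these ratios, so nothing is read from this count. On array 5, the other array with all 5, 2 were below 0 and 3 above.

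Because the spread of ratios differed between arrays, with SDs from 0.57 to 1.60, each member was also placed among the named genes of its own array. Grpr was lower than nearly all genes on every array that measured it: between 0.130% and 7.24% of genes had a lower ratio (median 1.33%). For Mbp this share was smallest on array 7, at 0.537%, and largest on array 3, at 49.8% (median 18.0%). For Gfra2 it ran from 4.72% to 48.2% (median 26.4%). Nefm was placed at 5.81% on array 4 and at 95.1% on array 5, its extremes, and Cntn1 at 23.3% on array 3 and at 99.9% on array 4. Mbp, Gfra2 and Grpr were thus below the middle of the genes on every array with a value. At their largest shares Mbp and Gfra2 lay close to the middle. Nefm and Cntn1 were below the middle on 4 of 7. The members were chosen by these ratios, so nothing is read from these counts.

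**Figure D2:**
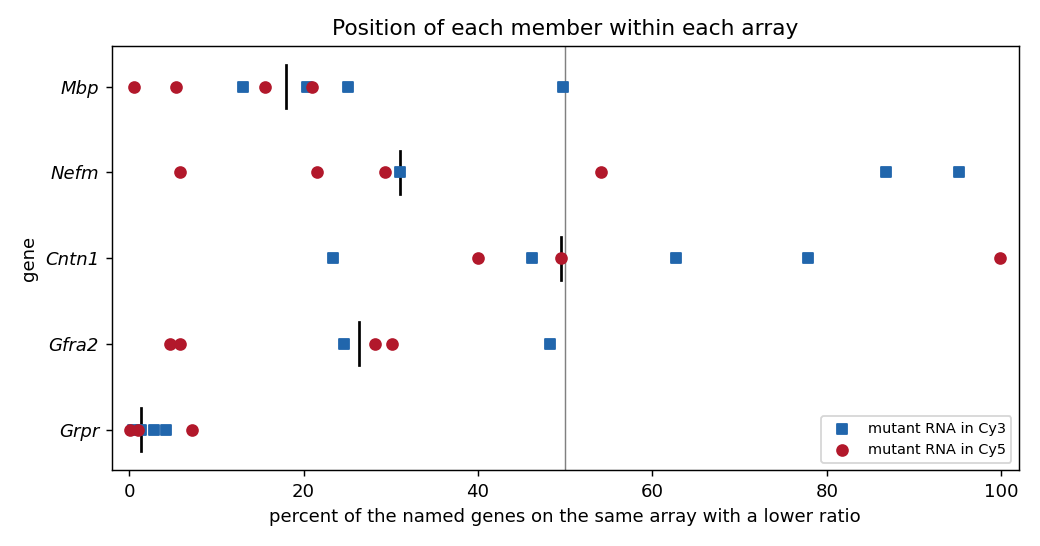
Position of each gene within each array, as the percent of named genes with a lower ratio (horizontal axis), with red circles for mutant RNA in Cy5, blue squares for mutant RNA in Cy3 and a black bar at the median over arrays. Grpr stays at or below 7.24% on 7 arrays, while Nefm spans 5.81% to 95.1%.

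The dye part is the ratio with the mutant RNA in Cy5 minus that with the mutant RNA in Cy3. It was not the value that chose the genes, and it was tested. It is still a contrast of the same array values, which had been seen when the genes were chosen. Where arrays lack a value, it is also not independent of the mean over arrays. Its p-values for the members are therefore to be read as descriptions. In limma, 1.75% of the 3779 genes had a dye part with an adjusted p below 0.05, and of the 4 members in the fit 0 did, although 2 had an unadjusted p below 0.05, against 30.9% of all genes. Mbp had a dye part of -1.08 ± 0.41 (SE, limma adjusted p = 0.108) and Nefm of -1.30 ± 0.55 (limma adjusted p = 0.136). Grpr had -0.49 ± 0.45 (limma adjusted p = 0.474) and Cntn1 1.11 ± 0.75 (limma adjusted p = 0.323). For Gfra2, with the looser filter, it was -0.75 ± 0.50 (limma adjusted p = 0.375). The 95% intervals of the dye part were wide, from -1.97 to -0.19 for Mbp and from -1.48 to 0.50 for Grpr. Without array 8 the dye part of Nefm passed the threshold, at -1.84 (limma adjusted p = 0.0392). If the table instead held Cy5 over Cy3, the fitted ratio of Grpr would be -0.24, that of Mbp -0.54 and that of Nefm -0.65.

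**Figure D3:**
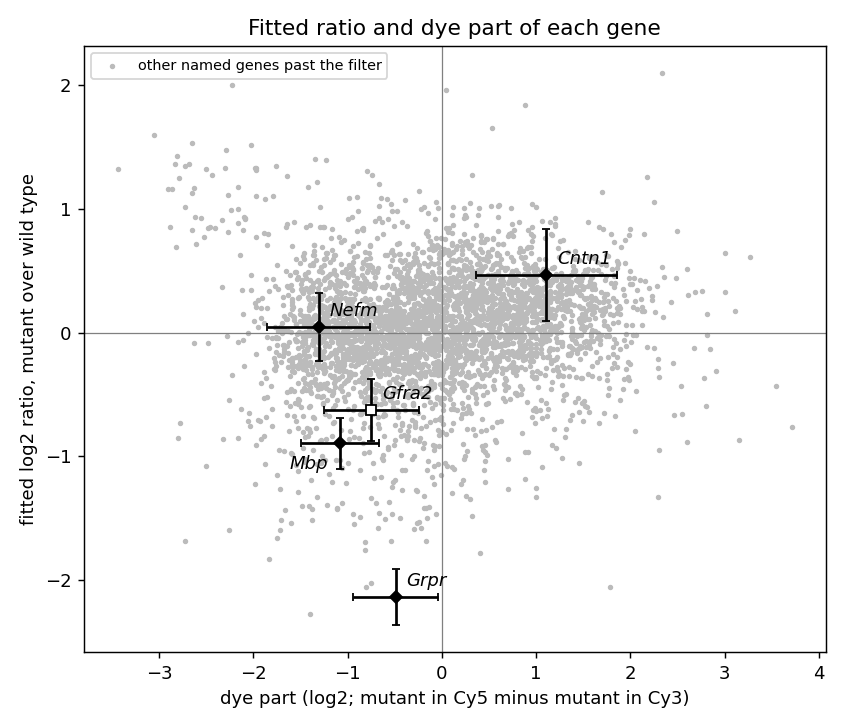
Fitted log2 ratio of mutant over wild type (vertical axis) against the dye part (horizontal axis, mutant in Cy5 minus mutant in Cy3), with a grey point for each other named gene in the fit. Black diamonds with SE bars are the members, an open square for Gfra2 from the looser filter: Grpr lies at -2.14 near the lower edge of all genes, while Nefm at 0.04 lies within them with a dye part of -1.30.

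With 1 array left out in turn, the fitted ratio of Grpr ran from -2.23 to -1.995 and that of Mbp from -1.02 to -0.75. These values describe how far 1 array moves the ratio and are no test of it, since the members were chosen by the ratios on these same arrays.

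**Figure D4:**
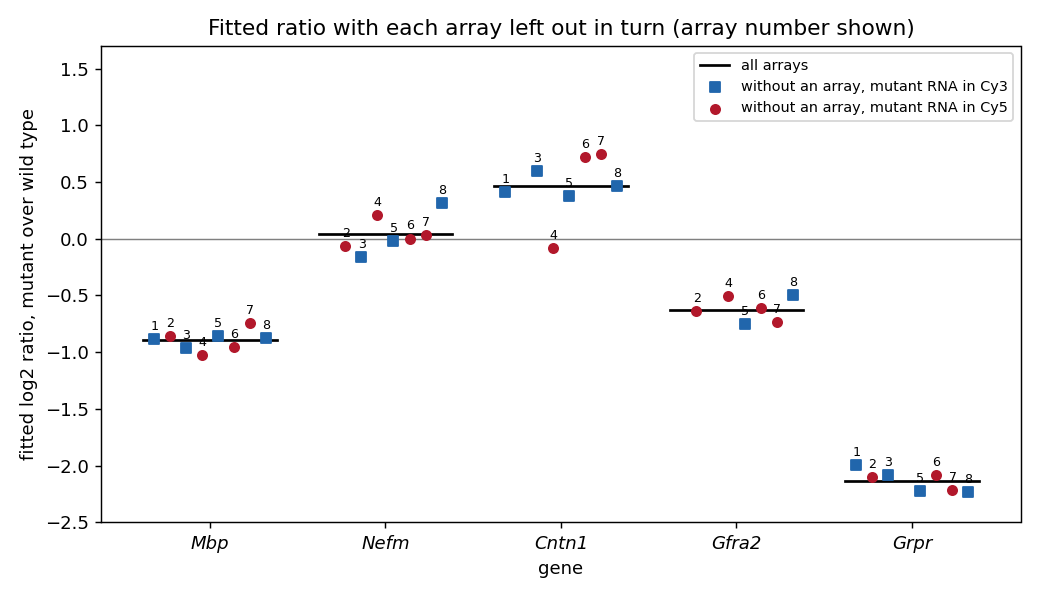
Fitted log2 ratio of mutant over wild type (vertical axis) with each array left out in turn, numbered by the array left out, and a black line for the fit on all arrays. Arrays without a value for a gene are not drawn. Leaving out array 4 takes Cntn1 to -0.08, while Grpr stays between -2.23 and -1.995.

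The other genes of nerve were read from 10 lists by role, of which 189 genes beside the 5 are counted here. Of these, 115 had a spot and 64 passed the filter. In limma 0 of the 64 counted were higher and 0 lower (adjusted p below 0.05), and 9 had an unadjusted p below 0.05. Over all genes fitted, 3.47% had an adjusted p below 0.05, 0.662% higher and 2.80% lower in the mutant, and 19.5% an unadjusted p below 0.05. Several genes passed under other processing, as the closing section gives: Gap43 and Ntf3 were lower with arrays scaled to one spread. The fitted ratios of the 64 were above 0 for 31 and below 0 for 33, against 55.3% and 44.7% of all genes fitted. Their median was -0.01, against 0.05 over all genes.

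In the list of contactins and axoglial contact, 0 of the 4 genes counted beside Cntn1 passed. Chl1, a relative of L1 and an adhesion molecule of neurites, stood at 0.45 ± 0.24 (limma adjusted p = 0.327), with values from -0.83 to 2.34. Ank3, an ankyrin that anchors channels at nodes of Ranvier, stood at 0.18 ± 0.19 (limma adjusted p = 0.620). Of the 4, 3 had fitted ratios above 0 and 1 below.

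Among the myelin genes counted beside Mbp, 0 of 4 passed, with fitted ratios above 0 for 2 and below 0 for 2 and a median of 0.11. The 2 farthest from 0 were both above it. Mobp, a myelin protein of the central nervous system, had a ratio of 0.37 (limma adjusted p = 0.339), and Mal, a membrane protein of myelin and of epithelia, of 0.34 (0.421). Among regulators and markers of Schwann cells, 0 of 7 passed, with fitted ratios above 0 for 3 and below 0 for 4 and a median of -0.05. The 2 farthest from 0, the transcription factor gene Pou3f2 and the gene Nab2, were at 0.37 and 0.34. Sox10, Egr2, Erbb3 and Ngfr, which define Schwann cells, were not analysed here, so the share of Schwann cells in the RNA was not tested.

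In the list of axon cytoskeleton genes, 0 of 8 passed beside Nefm. Of the 8, 7 had fitted ratios below 0, with a median of -0.39, against 44.7% of all genes below 0. Gap43, a growth cone protein, was at -0.73 ± 0.25 (limma adjusted p = 0.129), and Stmn3, a regulator of microtubules, at -0.72 ± 0.26 (limma adjusted p = 0.162). Gap43 ranged from 0.51 on array 7 to -3.08 on array 3. In the list of synaptic vesicle genes 0 of 7 counted passed, with Rab3a, a GTPase of vesicles, at 0.66 and the synuclein gene Sncg at -0.29. One gene of that list, Cplx2, a complexin of vesicle release named after its values were seen, had a dye part of 2.25 (limma adjusted p = 0.0286) and a ratio of -0.13.

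In the GDNF family 0 of 6 genes passed beside Gfra2, and 5 of the 6 had fitted ratios below 0, against 44.7% of all genes fitted. The ligand gene Gdnf stood at -0.33 ± 0.19, and Gfra1, the co-receptor that binds it, at -0.44 ± 0.19, below 0 on 7 of 7 arrays (limma adjusted p = 0.224). Named for their role after their values were seen, Nrtn, the neurturin gene, stood at -0.14 ± 0.20 and Ret at 0.23 ± 0.24. Neither partner of Gfra2 thus had a called change. Among neurotrophins and their receptors 0 of 4 passed. Ntf3, the neurotrophin 3 gene, stood at -0.92 ± 0.22 and was below 0 on 6 of 6 arrays (limma adjusted p = 0.0579), and its receptor gene Ntrk3 at 0.45.

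In the list of bombesin receptors and itch 0 of 10 genes passed beside Grpr, with a median of 0.09. Osmr, a receptor subunit for oncostatin M and interleukin 31, was at 0.75 ± 0.22 (limma adjusted p = 0.0892), and Plcb3, a phospholipase downstream of such receptors, at -0.62. Nmbr, the neuromedin B receptor and closest relative of Grpr in the list, named after its values were seen, was at 0.47 ± 0.27, with a range from -0.88 to 1.54. Its fitted ratio was above 0 where that of Grpr was below. Grp, the gene of the peptide itself, was not analysed here. In the list of sensory neuron genes 0 of 5 passed and all 5 had fitted ratios above 0, against 55.3% of all genes fitted. The homeobox genes Isl1 and Isl2 of that list were at 0.80 ± 0.35 and 0.41. Isl1 stood at 4.23 on array 2 and was below 0 on 3 of 8 arrays. It averaged 1.87 with the mutant RNA in Cy5 and -0.27 with it in Cy3, a dye part of 2.15 (limma adjusted p = 0.0784). Isl1 is also a marker of Merkel cells. In the axon guidance list 0 of 9 passed, with the ephrin gene Efnb2 at 0.65 and the ephrin receptor gene Epha4 at 0.58. Epha4 stood at 5.26 on array 8 and no higher than 0.56 elsewhere.

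**Figure D5:**
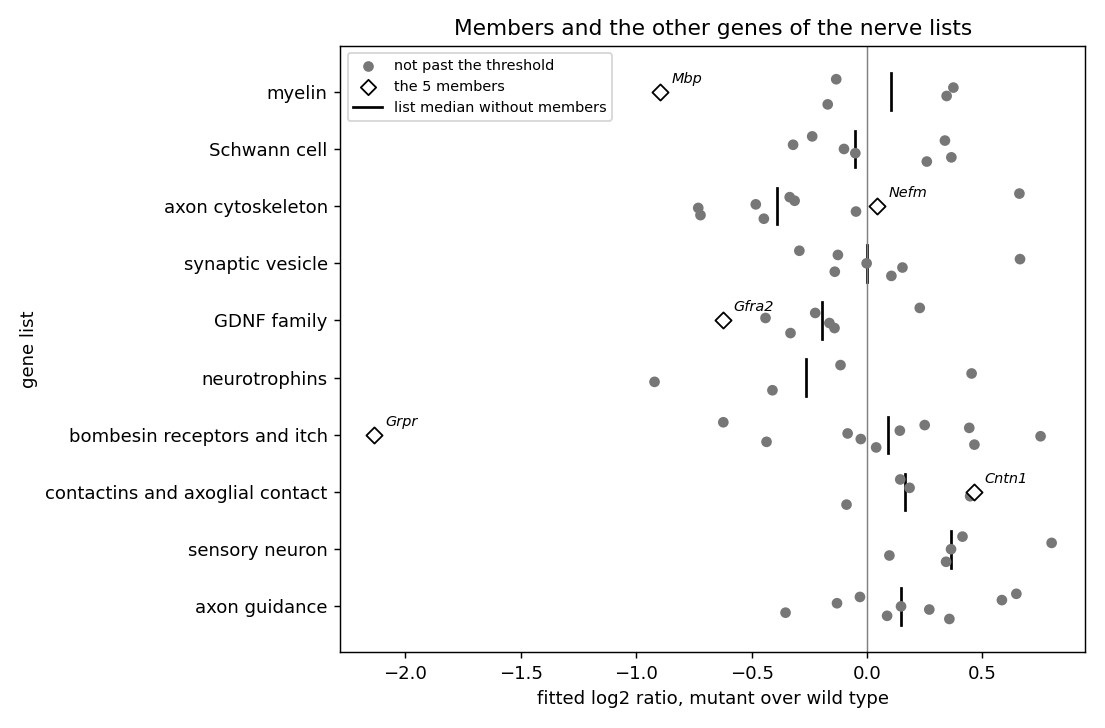
Fitted log2 ratio of mutant over wild type (horizontal axis) for the counted genes of 10 nerve lists, grey because the limma adjusted p was not below 0.05, with a black bar at the list median. Open diamonds are the 5 members, with Gfra2 from the looser filter: Grpr at -2.14, Mbp at -0.90 and Gfra2 at -0.62 lie left of all grey points of their own lists. The members were chosen by these ratios, so nothing is read from their place beside the other genes.

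Other cell types of skin that could carry these genes were read from marker lists of melanocytes, Merkel cells, skeletal muscle and blood vessels. Of 11 marker genes tested in limma, 0 passed, and 4 had an unadjusted p below 0.05, against 19.5% of all genes fitted. Their fitted ratios ran from -1.23 to 0.80, with a median of 0.09. The lowest was the only skeletal muscle gene counted and the highest, Isl1, the only Merkel cell gene counted. The part of these cell types in the ratios of the members was not tested.

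For each member, the genes with the most similar course over its arrays were found by Pearson correlation, as a description with no test, since the 6 to 8 arrays of a gene share dyes, spots and RNA. Over 8 arrays and 1612 genes, Mbp was most like Gsto1 (r = 0.99), Hgh1 (r = 0.99) and Hccs (r = 0.98). Gsto1, a glutathione transferase gene, also had its lowest values on array 7 (-3.15) and array 2 (-2.20), yet stood above 0 on arrays 1 and 3. Over 7 arrays, Nefm was most like the keratin gene Krt23, N4bp1 and Dctn4 (r = 0.99 each), which also had their lowest value on array 4. Grpr was most like the ribosomal protein genes Rpl35a (r = 0.95), Rps27a (r = 0.85) and Rps13 (r = 0.84) over 7 arrays, although on those arrays Rpl35a lay between -0.52 and 0.75 and Grpr between -2.73 and -1.32. Gfra2 was most like the ribosomal protein gene Rpl18 (r = 0.99), Atf6b (r = 0.98) and Myo5a (r = 0.97) over 6 arrays. Cntn1 was most like Pdk4 (r = 0.96), Ttc39d (r = 0.95) and Gipc1 (r = 0.95) over 7 arrays, each with its highest value on array 4.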

How the data were processed

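Skin RNA was measured on 8 two-colour arrays. The authors deposited a log ratio per spot, taken here as log2, with the image analysis, background correction, normalization, base and rule for missing values not given in the sources used here. Of 23232 rows, 864 blank, 275 buffer and 96 control oligonucleotide spots were left out, and 6747 of 21997 probes matched a gene of RefSeq GRCm38.p6 by accession and 77 by synonym. Probes of a gene were averaged. Genes with values on at least 3 of 4 arrays of each dye orientation were fitted in limma 3.58.1 (R 4.3.3) by a mean and a dye orientation coefficient, moderated, with Benjamini-Hochberg adjustment over all genes at 0.05. The fit was tested on simulated data for 3779 genes, where it recovered 98% of genes changed by 2 on the log2 scale and 25% of those changed by 1. The simulated noise was independent between arrays and of the same spread for all genes of an array. The measured arrays of the same orientation correlated (median r = 0.50), so these shares may not hold for them. Promoter sequences came from RefSeq.

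The members and gene lists were chosen with earlier results of these data known. Named genes were the 5 members and, per list, genes past the threshold or otherwise the 2 with the largest absolute ratio. Genes most like a member were the 3 with the highest correlation over its arrays. The number of arrays, animals shared between arrays, missing values and the unequal spread of arrays limit the precision. Alternatives were other filters, normalizations, readings of the table, array weights and omitted arrays. Some genes of the lists are not reported here and are left out of the lists' counts and medians.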

Additional observations from a re-analysis of the deposited data

Results flagged for a closer look

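Dixon's test was applied to 39 genes or list medians, and 2 of them had 1 array standing apart. For series not picked by their values, about 1 in 20 would do so by chance, which is 1.95. The genes here were picked with their ratios known, so that share need not hold for them. Cntn1 was at 3.21 on array 4, with the next value at 0.43. Epha4 was at 5.26 on array 8, with the next at 0.56.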

How the results depend on the processing

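The fitted ratio of Grpr stayed between -2.33 and -1.82 under every alternative run except the reading of the table as Cy5 over Cy3, where it was -0.24. Under that reading the dye parts were -1.79 for Mbp and -4.27 for Grpr, which rest on the ratios that chose these genes, and 0.090 for Nefm. Arrays weighted by quality put the dye part of Nefm past the threshold at -1.46. With arrays 4 to 8 alone 0 genes were higher and 0 lower in limma, and 740 of 4699 had an unadjusted p below 0.05. Genes higher over the whole table, 25 in the main analysis, were 12 with the looser filter, 46 with arrays scaled to one spread, 135 with quantile normalization, 62 read as Cy5 over Cy3, 184 with array weights and 5 without a dye term. Genes lower, 106 in the main analysis, were 55 with values on all arrays, 166, 225, 4 and 307 under scaling, quantile normalization, the reading by dye and weights, and 59 without a dye term. Nerve list genes higher were 1 with quantile normalization (Osmr), 1 read by dye (Cplx2) and 2 with weights (Osmr and Isl1). Nerve list genes lower were 2 with scaling (Gap43 and Ntf3), 3 with quantile normalization (with Stmn3) and 5 with weights (with Gfra1 and Plcb3), against 0 in the main analysis. Read as Cy5 over Cy3, ratios turned sign for the member Nefm (-0.65) and for Mal (-0.73), Pou3f2 (-0.36), Nab2 (-0.56), Gap43 (0.83), Rab3a (-0.49), Ntf3 (0.21), Ntrk3 (-0.60), Osmr (-0.52), Epha4 (-0.67), Ret (-0.70), Cplx2 (1.12) and Sncg (0.33). The cause was not tested.

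With 1 array left out in turn, fitted ratios ran from -1.02 to -0.75 for Mbp, -0.16 to 0.31 for Nefm, -2.23 to -1.995 for Grpr, -0.75 to -0.50 for Gfra2 and -0.08 to 0.75 for Cntn1. Dye parts ran from -1.33 to -0.78, -1.84 to -0.89, -0.77 to -0.30, -1.001 to -0.49 and 0.01 to 1.68 in the same order of genes, and that of Nefm passed the threshold without array 8 (-1.84). Genes higher ran from 6 to 21, genes lower from 47 to 112, nerve list genes lower from 0 to 1 (Ntf3 without array 8) and higher from 0 to 0. Epha4 ran from -0.084 to 0.88. The fit of Gfra2 with the looser filter was chosen after seeing the data. Each array is 1 ratio of both genotypes, so the fit already compares the genotypes within arrays. No further pairing was made, and all arrays form 1 group.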
